A study of Homo sapiens with 6 samples.

Results

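The 28 genes described here make and handle cholesterol: 20 enzymes that build it from acetyl-CoA, 4 genes of the SREBP2 switch in the endoplasmic reticulum, and 4 genes of sterol transport and storage. They were taken by gene symbol from a table of 58735 genes, and each of the 28 symbols matched 1 gene, annotated as protein-coding. The table holds read counts from 6 mRNA libraries of MOLM-13, an established human acute myeloid leukaemia line known for its KMT2A-MLLT3 fusion and its activated FLT3. One group was the wild-type line (as labelled) left untreated (control, n = 3 cultures). The other was the same line exposed to 3.5 nM 8p (n = 3 cultures), a compound that the series text calls a RET and CDK inhibitor and the sample labels a RET and CDK8 inhibitor, with a stated IC50 of 7 nM. The replicates of each group are stated to be independent biological replicates. Both groups were incubated for 48 hours in medium with serum, and whether the controls received the solvent of 8p is not stated.

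Animal cells make cholesterol through the mevalonate pathway. Acetyl-CoA units are joined and reduced to mevalonate, mevalonate is converted to prenyl diphosphates, and these are joined into squalene, which is folded into lanosterol and trimmed to cholesterol. The pathway is controlled by SREBP2, a transcription factor held in the membrane of the endoplasmic reticulum. When sterols are scarce, the escort protein SCAP carries SREBP2 to the Golgi for cleavage, and its freed part turns on the synthesis genes and the uptake of lipoproteins. When sterols are plentiful, INSIG proteins hold SCAP back. The prenyl diphosphates also feed protein prenylation, ubiquinone and dolichol, so the upper pathway serves dividing cells beyond cholesterol itself.

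Total counts were 18834611 to 23485628 in the controls and 14972069 to 16210861 with 8p. Counts of mitochondrially encoded genes took 1.64% to 1.91% of the control libraries and 6.42% to 10% of the 8p libraries. The library of 8p replicate 2 stood apart from the other 8p libraries on the second principal component, and it was the library with 6.42%. Of 10 monocyte and macrophage markers 5 were higher with 8p (CD14, LYZ, CSF1R, S100A8 and S100A9) and 1 lower (FCGR1A, −2.67 on the log2 scale). ITGAM did not pass the test, CD68 had too few counts to be tested, and CD163 and MRC1 were at 0 in every library. The 10 markers summed to 1054 to 1163 CPM (counts scaled to library size) in controls and to 3567 to 4257 CPM with 8p. Most of this was LYZ, with means of 1040 CPM in controls and 3732 CPM with 8p. Of 7 myeloid progenitor markers 3 were lower (MPO −0.64, CD33 −0.50 and AZU1 −0.33 on the log2 scale) and 2 higher (FLT3 0.77 and KIT 4.68, the latter from 0.190 to 5.00 CPM). ELANE did not pass the test and CD34 was at 0 in every library. Of the other marker lists, erythroid and megakaryocyte genes summed to at most 0.675 CPM and B cell genes to at most 2.29 CPM in any library. The 6 epithelial and fibroblast markers summed to 1.12 to 2.07 CPM in controls and 28.1 to 39.1 CPM with 8p, most of it COL1A1, with EPCAM, KRT19, COL1A2 and DCN at 0, and the 6 T and NK cell markers to 21.0 to 24.8 and 30.7 to 38.7 CPM. Most of the latter was NKG7, which was higher with 8p, as was GNLY, while CD3D was lower (−2.64). The part of these shifts in the changes below was not tested. In RNA from whole cultures, fewer cells of one state and less RNA per cell cannot be told apart.

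The synthesis pathway was mostly lower with 8p, while 3 of the 4 transport and storage genes among the 28 were higher. A wider list of sterol uptake, transport and ester genes, given last, held 4 rises (30.8%) and 3 falls (23.1%) among 13 tested. Over all genes tested the shares were 37.9% and 36.9%. Of the 20 synthesis enzymes 13 fell, 4 rose and 3 did not pass the test, with a median log2 fold change of −0.55 against 0.03 over all 13822 genes tested. The largest falls were those of LBR, FDPS, DHCR7, NSDHL and ACAT2, at 2.43-fold to 3.07-fold. NPC1 and NPC2, which export cholesterol from lysosomes, rose 2.05-fold and 2.24-fold. SREBF2, which encodes SREBP2, was 1.14-fold higher, a call that was lost without any one of 5 of the 6 libraries, and INSIG1 fell 1.90-fold.

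All 28 genes had enough counts to be tested. A gene was called changed at a Benjamini-Hochberg adjusted p under 0.05 over all genes tested (edgeR's quasi-likelihood test). Of the 28, 22 (78.6%) were called changed, against 74.7% of all genes tested, so the share of changed genes was close to the background. By direction, 14 fell (50%, background 36.9%) and 8 rose (28.6%, background 37.9%). Among the synthesis enzymes alone 65.0% fell and 20.0% rose. Called changes of at least 2-fold were found for 7 of the 28 (25.0%) against 38.4% of all genes tested. Every treated library lay outside the range of the controls for 22 of the 28 (78.6%, background 77%). With upper quartile scaling, which raised the median of all genes by 0.19 on the log2 scale, 12 of the 28 rose and 13 fell, where 45.1% and 30.8% of all genes did. The 4 added rises were MSMO1 (0.31, adjusted p = 0.00512), HSD17B7 (0.27, 0.0338), SCAP (0.25, 0.00684) and STARD4 (0.25, 0.0247), and HMGCS1 was no longer called. Without 8p replicate 2, 7 rose and 14 fell.

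**Figure D1:**
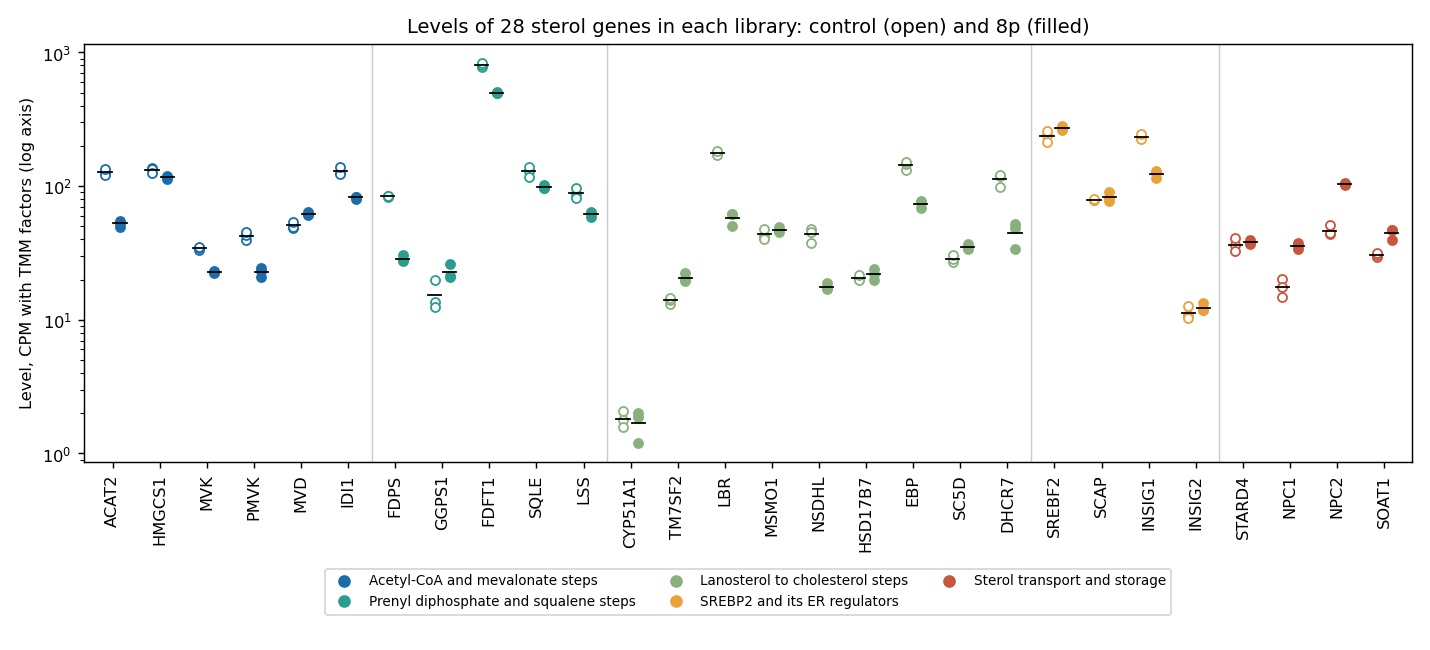
Level of each of the 28 genes in every library, in CPM with TMM library factors on a log axis, with open points for the 3 controls, filled points for the 3 libraries with 8p and black bars for group means. The 3 filled points lie below the open ones for 14 genes and above them for 8.

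The genes together took 0.290%, 0.291% and 0.291% of all counts in the controls and 0.208%, 0.217% and 0.207% with 8p. All 3 treated libraries were lower (exact two-sided permutation test, p = 0.1, the smallest that 3 against 3 samples allow). Outside mitochondrially encoded genes the shares were 0.296% ± 0.000590 and 0.231% ± 0.00112 (SD, n = 3). FDFT1 alone held 27.1%, 27.7% and 28% of the counts of the 28 genes in controls and 24.04%, 23.5% and 23.8% with 8p.

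The first steps run from acetyl-CoA to isopentenyl diphosphate, and 5 of the 6 genes listed for them here fell (83.3%, background 36.9%). ACAT2, the cytosolic thiolase that joins acetyl-CoA units, stood at 126, 122 and 135 CPM in controls and at 55.2, 49.7 and 52.8 CPM with 8p. The groups were well apart, and the log2 fold change was −1.28 (SE 0.08, adjusted p = 3.92e-10, edgeR). ACAT2 (GRCh38 chromosome 6, 159760328 to 159779055, plus strand) shares 52.3% of its exon bases with other genes. The overlapping annotations of SOD2 and SOD2-OT1 on the other strand held at most 3 counts, but TCP1, also on that strand and with 9.23%, is abundant. TCP1 held 59067 counts to 10525 for ACAT2 and also had fewer with 8p, 11603 against 47464 in controls, and without the strand setting of the counting the reads of the shared part cannot be assigned.

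HMGCS1, the synthase that makes HMG-CoA and a classic target of SREBP2, moved little. Its levels were 137, 133 and 126 CPM in controls and 113, 120 and 117 CPM with 8p, which do not overlap but lie close together. Its log2 fold change was −0.18 (SE 0.07, adjusted p = 0.0263, edgeR), and it was 0.0091 with upper quartile scaling (adjusted p = 0.906). The call was also lost without control replicate 1 (adjusted p = 0.0724) or 8p replicate 1 (0.0673), with total counts (0.0560), with a minimum of 1 CPM (0.0591) and over protein-coding genes alone (0.212). The kinases that act further on, on mevalonate and then on its phosphate, both fell. MVK, mevalonate kinase, had 33.1, 34.6 and 35.2 CPM in controls and 22.6, 23.1 and 22.6 CPM with 8p (log2 fold change −0.59). MMAB, which lies on the other strand and shares 4.72% of the exon bases of MVK, held 3759 counts in controls and 636 with 8p. PMVK, phosphomevalonate kinase, shares no exon base with another gene and went from 42.7 ± 2.75 to 22.8 ± 1.65 CPM (SD, n = 3; −0.90).

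MVD, which removes carbon dioxide to give isopentenyl diphosphate, went the other way. It stood at 48.8, 49.6 and 53.9 CPM in controls and at 60.8, 61.6 and 63.5 CPM with 8p, a difference of 0.29 on the log2 scale (SE 0.08, adjusted p = 0.00330, edgeR). All 3 treated values lay above the controls, but the call was lost with no filter on low counts (adjusted p = 0.123). IDI1, the isomerase that supplies the second building block, had 126, 123 and 140 CPM in controls and 80.5, 83.5 and 82.7 CPM with 8p, and fell by 0.65 on the log2 scale. The listed genes of the upper pathway therefore held 5 falls and a small rise at the decarboxylase, between PMVK and IDI1.

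At the branch where prenyl diphosphates are built, FDPS and GGPS1 moved in opposite directions. FDPS, farnesyl diphosphate synthase (chromosome 1, 155308748 to 155320666, plus strand), had 82.7, 84.7 and 83.7 CPM in controls and 27.5, 30.4 and 28.2 CPM with 8p. The libraries of each group lay close together, and the fall was 2.91-fold (log2 fold change −1.54, SE 0.08, adjusted p = 8.52e-11, edgeR). Its 8 listed pseudogenes held 18 counts in all, 0.271% of those of FDPS, and RUSC1-AS1, which shares 18.6% of its exon bases on the other strand, held 521. GGPS1, which extends farnesyl to geranylgeranyl diphosphate for protein prenylation, had 13.5, 12.4 and 19.8 CPM in controls and 21.0, 26.4 and 21.4 CPM with 8p. Control replicate 3 was close to the treated libraries, and the rise was 0.60 on the log2 scale (SE 0.16, adjusted p = 0.00335) or 0.80 without that library. GGPS1 shares 37.3% of its exon bases with an annotated TBCE gene on its own strand, which held 142 counts to 2024 for GGPS1 (90 in controls and 52 with 8p). It also shares 3.62% with ARID4B on the other strand, which held 3786 counts (1611 in controls and 2175 with 8p). ARID4B rose as GGPS1 did (log2 fold change 0.87, adjusted p = 6.45e-07, edgeR). The effect of these overlaps on the rise of GGPS1 was not tested.

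The committed sterol steps all fell, by less than FDPS. FDFT1, squalene synthase, was the most abundant of the 28 genes per kilobase in both groups. Its levels were 778, 807 and 834 CPM in controls and 507, 496 and 499 CPM with 8p (log2 fold change −0.69, SE 0.07, adjusted p = 1.40e-07, edgeR). SQLE, squalene epoxidase and a rate-limiting enzyme of the later pathway, had 130, 118 and 139 CPM in controls and 97.2, 97.0 and 103 CPM with 8p, a fall of 0.38 on the log2 scale. LSS, which folds the epoxide into lanosterol, had 86.7, 96.6 and 81.9 CPM and then 63.4, 58.3 and 64.0 CPM, a fall of 0.51. In each of these 3 genes every treated library lay below every control.

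The 9 enzymes from lanosterol to cholesterol were divided, with 4 falls (44.4%, background 36.9%), 2 rises (22.2%, background 37.9%) and 3 that did not pass the test. DHCR7, the last reductase of one branch (chromosome 11, 71428193 to 71452868, minus strand), had 119, 120 and 98.8 CPM in controls and 51.6, 33.6 and 48.2 CPM with 8p. 8p replicate 2 was the lowest, and the log2 fold change was −1.34 (SE 0.13, adjusted p = 1.21e-07, edgeR). NSDHL, a dehydrogenase in the removal of the methyl groups at carbon 4, had 37.9, 47.9 and 45.6 CPM in controls and 18.7, 17.3 and 16.9 CPM with 8p (−1.31). EBP, the sterol isomerase, had 132, 146 and 151 CPM in controls and 77.3, 76.2 and 68.7 CPM with 8p (−0.95). All 3 genes share no exon base with another gene.

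Of the remaining steps, SC5D, the C5 desaturase that works between EBP and DHCR7, was higher with 8p. It had 27.0, 28.5 and 30.6 CPM in controls and 36.9, 34.1 and 34.4 CPM with 8p (log2 fold change 0.29, adjusted p = 0.00815, edgeR). Its call was lost without control replicate 1 (adjusted p = 0.0780), without 8p replicate 1 (0.0568), with DESeq2 (0.0865) and with no filter on low counts (0.179). MSMO1, the methyl oxidase, had a change of 0.12 on the log2 scale (SE 0.09, adjusted p = 0.227), and the ketoreductase HSD17B7 one of 0.08 (SE 0.11, adjusted p = 0.497), with overlapping groups in both. Over protein-coding genes alone MSMO1 passed the test (0.21, adjusted p = 0.0431). The 2 listed pseudogenes of HSD17B7 held 348 counts, 14.98% of those of the gene, so its reads may be divided among near-identical copies.

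CYP51A1, the lanosterol demethylase, had only 1.58 to 2.07 CPM in controls and 1.199 to 2.00 CPM with 8p, or 194 counts over the 6 libraries. Per kilobase it was the lowest of the 28 genes. Of its exon bases 83.2% also belong to other annotated genes. The single gene AC000120.2, on the same strand, shares 79.4% of all exon bases of CYP51A1 and held 0 counts. Reads in shared exons can be dropped as ambiguous when each read must belong to one gene, and no source used here gives the setting for such reads. The change of CYP51A1 was −0.10 on the log2 scale (SE 0.32, adjusted p = 0.776), and the effect of the shared exons on its level was not tested.

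LBR and TM7SF2 encode proteins with the same sterol C14 reductase activity, and they changed in opposite directions. LBR is also the lamin B receptor, which ties chromatin to the inner nuclear membrane. LBR (chromosome 1, 225401502 to 225428925, minus strand) had 180, 170 and 184 CPM in controls and 62.0, 61.7 and 50.2 CPM with 8p (log2 fold change −1.62, SE 0.09, adjusted p = 1.10e-10, edgeR). In edgeR this was the largest fall among the 28 genes, and LBR shares no exon base with another gene. TM7SF2 (chromosome 11, 65111845 to 65116384, plus strand) had 13.2, 13.97 and 14.6 CPM in controls and 19.5, 20.1 and 22.3 CPM with 8p (0.56, SE 0.11, adjusted p = 3.54e-04), and shares 16 exon bases with its neighbour VPS51. Per base of summed annotated exons, LBR exceeded TM7SF2 by 7.85-fold to 8.80-fold in controls and by 1.46-fold to 2.06-fold with 8p.

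**Figure D2:**
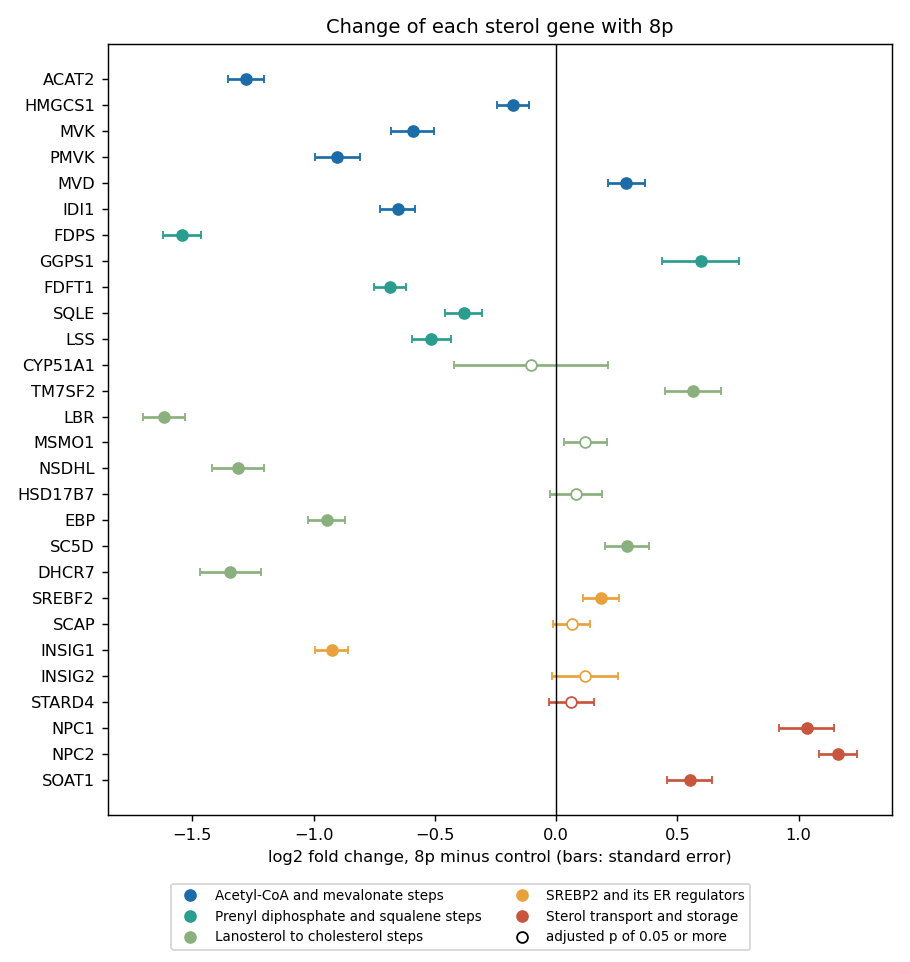
Log2 fold change of each gene, 8p minus control, in pathway order from top to bottom, with bars for the standard error and open points for genes with an adjusted p of 0.05 or more. Synthesis enzymes lie mostly left of 0 and NPC1, NPC2 and SOAT1 right of it; HMGCS1 moves from −0.18 to 0.0091 with upper quartile scaling.

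The 4 genes of the SREBP2 switch changed little except for INSIG1. SREBF2 (chromosome 22, 41833079 to 41907308, plus strand) had 242, 259 and 215 CPM in controls and 261, 280 and 273 CPM with 8p. The lowest treated library lay just above the highest control, and the log2 fold change was 0.18 (SE 0.07, adjusted p = 0.0347, edgeR). The call was lost without control replicate 1 (adjusted p = 0.109), control replicate 3 (0.197), 8p replicate 1 (0.0702), 8p replicate 2 (0.141) or 8p replicate 3 (0.125). It was also lost with RLE scaling (0.0548), with DESeq2 (0.184) and with no filter on low counts (0.487). SCAP, the escort of SREBP2, had 79.1 ± 1.42 and 82.7 ± 6.62 CPM (SD, n = 3; 0.07, SE 0.08, adjusted p = 0.451).

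INSIG1, the anchor of SCAP and itself a target of SREBP2 (chromosome 7, 155297776 to 155310235, plus strand), had 237, 223 and 244 CPM in controls and 116, 130 and 124 CPM with 8p. Every treated library was far below the controls, at −0.93 on the log2 scale (SE 0.07, adjusted p = 7.54e-09, edgeR). INSIG2, its paralog, had 11.3 ± 1.29 and 12.3 ± 0.944 CPM (SD, n = 3), with overlapping groups (0.12, SE 0.14, adjusted p = 0.443). INSIG1 was the second most abundant of the 28 genes per kilobase in controls, at 64.3 ± 2.83 CPM per kilobase, and the fourth with 8p, at 33.8 ± 1.91.

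Promoter sequences are shown for members on either side of the change, since SREBP2 acts together with NF-Y, which binds the CCAAT box. RefSeq promoters of 300 bases, from 250 before to 50 after each start site (GRCh38.p14), were matched by symbol for 25 of the 28 genes. The other 3, ACAT2, FDFT1 and SQLE, all fell. The sterol regulatory element SRE-1 of 10 letters, the first run of capitals in the SREBF2 stretch, was searched on both strands, and it occurred in 1 of the 25 genes, SREBF2, and in 0.0586% of all 27305 genes in the table. The looser form TCACNCCAC, which includes it, was found in the same gene alone and in 1.39% of all genes. CCAAT on either strand occurred in 19 of the 25 (76.0%) against 39.7% of all genes. It was found in 9 of 11 genes that fell, 7 of 8 that rose and 3 of 6 that did not pass. The GC box GGGCGG was found in 23 of 25 (92.0%, against 48.3%) and the E-box CACGTG in 4 of 25 (16%, against 8.77%). The 27305 genes were not limited to those expressed here, so these shares are not set against genes of like expression. A gene counts if any of its listed promoters holds the letters, and a match or its absence in this window says nothing of binding. The stretches below run 5′ to 3′ on the gene's strand, with the element and CCAAT (or ATTGG, its other strand) in capitals.
SREBF2, higher, chr22:41832956-41833015, plus strand: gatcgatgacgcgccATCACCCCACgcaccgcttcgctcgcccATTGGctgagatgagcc
MVD, higher, chr16:88663149-88663198, minus strand: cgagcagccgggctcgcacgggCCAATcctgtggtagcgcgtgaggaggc
NPC2, higher, chr14:74493629-74493678, minus strand: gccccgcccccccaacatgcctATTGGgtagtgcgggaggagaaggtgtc
FDPS, lower, chr1:155308668-155308717, plus strand: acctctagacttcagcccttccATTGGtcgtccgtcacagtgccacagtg
DHCR7, lower, chr11:71448460-71448509, minus strand: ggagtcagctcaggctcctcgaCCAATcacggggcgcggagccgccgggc
INSIG1, lower, chr7:155297686-155297735, plus strand: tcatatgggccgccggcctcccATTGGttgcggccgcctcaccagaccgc

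In SREBF2 the element lay 134 to 125 bases before the start site, with ATTGG further along the same stretch. The capitals in DHCR7, which fell, lay 94 to 90 bases before the start, and its promoter held another match 48 to 44 bases before it. In MVD, which rose, the capitals lay 85 to 81 bases before the start, and further matches began 159 and 120 bases before it. Genes that fell and genes that rose thus both held this box, and the letters did not separate them.

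Of the 4 transport and storage genes 3 rose (75.0%, background 37.9%) and none fell (background 36.9%). Their median change was 0.79 on the log2 scale. NPC2, the soluble lysosomal protein that takes cholesterol from lipoproteins after their breakdown (chromosome 14, 74476192 to 74494177, minus strand), had 43.9, 44.4 and 50.9 CPM in controls and 106, 103 and 102 CPM with 8p. The treated libraries lay close together and far above the controls, and the log2 fold change was 1.16 (SE 0.08, adjusted p = 2.19e-09, edgeR). NPC1, the membrane protein that receives that cholesterol (chromosome 18, 23506184 to 23586898, minus strand), had 20.1, 17.5 and 14.7 CPM in controls and 37.5, 33.9 and 36.2 CPM with 8p (1.03, SE 0.11, adjusted p = 6.44e-07). ISCA2 on the other strand shares 3.75% of the exon bases of NPC2, and RMC1 5.98% of those of NPC1. Raw counts of both partners were fewer with 8p (664 against 1335, and 756 against 1084). These are not scaled to the lower totals of the 8p libraries, so they do not show that RMC1 fell.

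SOAT1, which esterifies cholesterol for storage in lipid droplets, had 29.5, 30.5 and 31.5 CPM in controls and 47.0, 47.1 and 39.7 CPM with 8p. All treated values were above the controls, with 8p replicate 3 nearest to them (log2 fold change 0.55, SE 0.09, adjusted p = 5.60e-05, edgeR). STARD4, a cytosolic sterol carrier that is also a SREBP2 target, had 36.0, 32.8 and 40.6 CPM in controls and 39.9, 37.0 and 37.4 CPM with 8p, with overlapping groups (0.06, SE 0.09, adjusted p = 0.556). Per kilobase, NPC2 went from the 14th of the 28 genes in controls (16.9 ± 1.41 CPM per kilobase) to the second with 8p (37.7 ± 0.722). LBR went from the fourth to the 14th and FDPS from the 12th to the 18th.

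**Figure D3:**
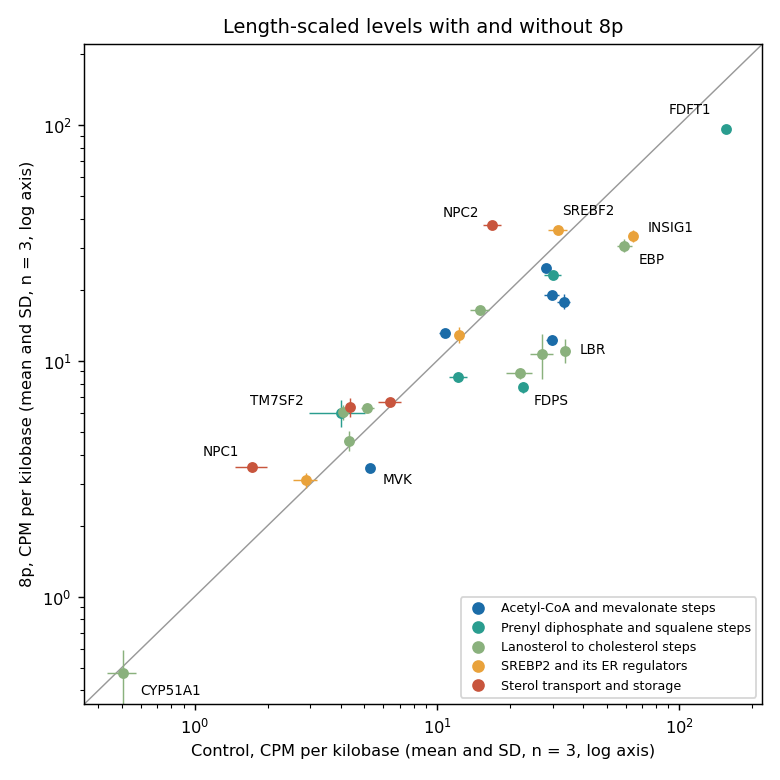
Mean level per kilobase of exon sequence for the 28 genes, control on the x axis and 8p on the y axis, both in CPM per kilobase on log axes with SD over 3 libraries; the line marks equal levels. FDFT1 is highest in both groups, and NPC2 lies farthest above the line at the level of the abundant enzymes, at 37.7 against 16.9.

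Ratios of 2 genes within a library do not depend on how libraries are scaled, so 5 pairs were compared in this way. Counts, with 0.5 added, were divided by the summed length of all annotated exons, which can exceed that of the transcript in use. The log2 ratio of LBR to TM7SF2 was 3.05 ± 0.0834 in controls and 0.86 ± 0.273 with 8p (SD, n = 3). That of FDPS to GGPS1 was 2.52 ± 0.361 and 0.37 ± 0.107, so FDPS RNA exceeded GGPS1 RNA 5.73-fold in controls and 1.29-fold with 8p. GGPS1 shares 37.3% of its exon bases with a gene on its own strand and 3.62% with ARID4B on the other. The effect of these overlaps on the ratio of FDPS to GGPS1 was not tested. INSIG1 exceeded INSIG2 by 22.4-fold in controls and 10.9-fold with 8p. SREBF2 was below SREBF1, the gene of the related factor that drives fatty acid synthesis, at a ratio of 0.732 in controls, and above it at 4.55 with 8p. In each of these 4 pairs the groups did not overlap (exact two-sided permutation test, p = 0.1, adjusted 0.125 over the 5 pairs, where 3 against 3 cannot go below 0.1). NPC1 to NPC2 had a log2 ratio of −3.30 ± 0.335 and −3.41 ± 0.0678 with overlapping groups (exact p = 0.7).

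**Figure D4:**
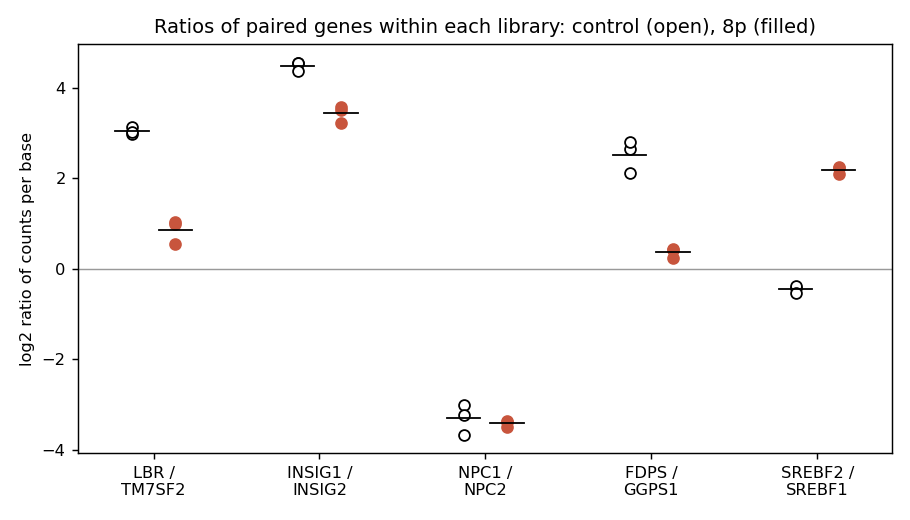
Log2 ratio of counts per base for 5 gene pairs within each library, with open points for controls, filled points for 8p and black bars for group means. The ratios LBR to TM7SF2, INSIG1 to INSIG2 and FDPS to GGPS1 were lower in all 3 treated libraries, SREBF2 to SREBF1 was higher in all 3, and NPC1 to NPC2 overlapped.

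Genes around the pathway were followed in 7 further lists of 68 genes, and 60 passed the filter on low counts. Among those 60, 12 rose and 30 fell (20.0% and 50%, against 37.9% and 36.9% of all genes tested), with a median log2 fold change of −0.21. Acetyl-CoA supply fell at 3 of its 4 genes (75.0%, background 36.9%). ACAT1, the mitochondrial thiolase, went from 122 ± 7.18 to 42.6 ± 1.34 CPM (SD, n = 3; −1.52), and ACLY, which makes cytosolic acetyl-CoA from citrate, from 363 ± 29.1 to 127 ± 3.44 CPM (−1.51). ACSS2, which makes it from acetate instead, rose from 49.4 ± 1.78 to 97.9 ± 5.89 CPM (0.99).

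Among 14 other users of isoprenoids 8 fell (57.1%, background 36.9%) and none rose (background 37.9%) at an adjusted p under 0.05 in edgeR. Their median log2 fold change was −0.49. PDSS1, which builds the side chain of ubiquinone, went from 46.8 ± 3.80 to 9.20 ± 1.33 CPM (SD, n = 3; −2.34), and ICMT, which methylates prenylated proteins, from 106 ± 6.27 to 40.5 ± 3.59 CPM (−1.39). ABI1, on the other strand from PDSS1, shares 10.54% of its exon bases. It held 4877 raw counts in controls and 5117 with 8p, not scaled to the lower totals of the 8p libraries. Of 11 other genes of SREBP processing and degradation in the endoplasmic reticulum 2 rose (18.2%, background 37.9%) and 6 fell (54.5%, background 36.9%). SREBF1 went from 346 ± 12.8 to 63.5 ± 5.72 CPM (−2.44), and UBE2G2, a ubiquitin-conjugating enzyme, was higher with 8p, with a log2 fold change of 0.52.

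Of 6 tested electron donors and scaffold proteins of sterol enzymes 1 rose (16.7%, background 37.9%) and 4 fell (66.7%, background 36.9%). CYB5B, a cytochrome b5, fell by 1.35 and PGRMC1, a heme protein that binds cytochromes P450, by 0.88 on the log2 scale. AC026464.2, on the strand of CYB5B, shares 35.1% of the exon bases of CYB5B and held 0 counts, and the effect was not tested. POR, the reductase of cytochromes P450, rose by 0.22 (adjusted p = 0.0182, edgeR), a call lost with DESeq2 (0.157), with no filter on low counts (0.405) and without 8p replicate 1 (0.140) or any one of control replicates 1 to 3 (0.0641, 0.0900 and 0.0506). Among the partner factors of SREBPs, SP1 rose by 0.52, and the NF-Y subunits NFYA and NFYC fell, at −0.53 and −0.47. The third subunit, NFYB, named after its values were seen, was at −0.43 (adjusted p = 0.00256, edgeR), and its highest adjusted p over the alternatives was 0.0589.

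Among 8 tested oxysterol and LXR genes 3 rose and 3 fell (37.5% each), close to the 37.9% and 36.9% of all genes tested. RXRA, the partner receptor of LXR, went from 103 ± 5.74 to 246 ± 12.8 CPM (SD, n = 3; 1.26), and CYP27A1, a sterol hydroxylase, from 0.0856 ± 0.0819 to 1.54 ± 0.424 CPM (4.16). ABCA1, the cholesterol exporter induced by LXR, fell by 0.98 and NR1H3, which encodes LXR alpha, by 0.81 on the log2 scale. ACP2, on the other strand from NR1H3, shares 4.17% of its exon bases and held 1920 counts to 467. Of 13 tested genes of sterol uptake, transport and esters 4 rose (30.8%) and 3 fell (23.1%), with a median log2 value of 0.10. Both shares were below those of all genes tested, 37.9% and 36.9%. LRP8, a lipoprotein receptor, went from 48.6 ± 5.47 to 11.6 ± 1.51 CPM (−2.08), and SCARB1, a receptor of high-density lipoprotein, fell by 0.84. OSBPL2, an oxysterol-binding protein, rose by 0.63 and GRAMD1B, which carries cholesterol from the plasma membrane, by 0.50.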

How the data were processed

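Messenger RNA was sequenced from 6 cultures of MOLM-13, 3 untreated and 3 given 8p. Per the submitters' processing notes, the tools named were edgeR 3.22.5, DESeq2 1.20.0, HISAT2 2.0.5 and featureCounts 1.5.0-p3, with the build hg38. The deposited values are raw counts, not normalized by the authors, and the labels' protocol names poly(A) capture or ribosomal RNA removal without saying which. Its extraction step speaks of genomic DNA, while its library step and the sample entries give RNA. The strand setting of the counting was not given in the sources used. Gene lengths in the deposited table, another kind of value (other, in bases), equalled the summed exon length in GENCODE 29 for all 51 genes checked.

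Counts were tested with edgeR 4.0.16 in R 4.3.3 (glmQLFTest, TMM factors, filterByExpr, group as the only term) over the whole table, with Benjamini-Hochberg adjustment over 13822 genes. The SE is the log2 fold change divided by the square root of F. CPM use TMM factors, and CPM per kilobase divide by gene length. Counts given for overlapping genes are raw sums over libraries, not scaled to library totals. TMM takes most genes as unchanged, so with 74.7% called each change is relative to the other transcripts. All 28 members, and of each other list the 2 called genes with the largest change in each direction plus SREBF1, are named, except that some genes of the other lists are not reported here. The members and lists were chosen with earlier results of these data known. Alternatives were DESeq2 1.42.0, limma-voom (limma 3.58.1), other scalings, filters and gene sets, an adjusted p under 0.01, the replicate number as a block, and each library left out in turn. The edgeR fit was tested on simulated counts in which few genes changed, so that test did not cover scaling where 74.7% are called. Sequences are from RefSeq.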

Additional observations from a re-analysis of the deposited data

How the results depend on the processing

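Of the 22 called genes among the 28, 18 kept their call and direction in all 17 alternatives, and HMGCS1, MVD, SC5D and SREBF2 lost theirs in at least 1. With no filter on low counts 5 of the 28 rose, and 2 of the synthesis enzymes, and with upper quartile scaling 21 genes of the other lists rose; the cause was not tested. Signs turned at values near 0: upper quartile scaling gave HMGCS1 0.0091 and CYP51A1 0.083, no filter gave HSD17B7 −0.033, SCAP −0.050 and STARD4 −0.053, and DESeq2 gave STARD4 −0.0024. That missing filter moved the median of the genes tested by −0.12. With each library left out, CYP51A1 ran from −0.26 to 0.066, HSD17B7 from −0.0068 to 0.12, SCAP from −0.031 to 0.093, STARD4 from −0.033 to 0.12 and the NPC1 to NPC2 difference from −0.30 to 0.030. The 28 genes then gave 6 to 8 rises and 13 to 14 falls, the synthesis enzymes 3 to 4 and 12 to 13, and the other lists 10 to 14 and 29 to 32. The replicate number did not pair the libraries: deviations of same-numbered libraries correlated at −0.0071, −0.0181 and −0.0432. With the replicate block 8 of the 28 rose and 14 fell. CYP51A1 had the fewest counts of the 28 genes, 194 in all, and the part of depth and of its shared exons in this was not tested.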
